A study of Mus musculus with 4 samples.

Results

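The 7 mouse genes, Arid1a, Msh6, Plec, Ppp1r15b, Fzd5, Rbm15b and Spry4, were followed through a list of 4206 peaks from an m6A pulldown in embryonic stem cells. A peak was assigned to a gene when any of its blocks lay in a window set around that gene in the mouse build mm9, on the gene's strand. The 7 windows held 19 peaks, or 0.452% of the list. The genes were chosen by the length of their peaks in this same list, so the lengths of the widest peaks are a description and were not tested. The windows were not checked against an annotation of mm9. The genes were grouped as regulators, a name that does not suit all of them: Plec codes for a protein of the cytoskeleton and Msh6 for one of DNA mismatch repair.

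The cells were of the CCE line, cultured without feeders in the presence of leukemia inhibitory factor. They carried either a control shRNA or an shRNA against Zfp217, a zinc finger protein, and from day 4 after infection were held for 5 days in puromycin at 1 microgram per mL. Each arm gave 1 input library and 1 library pulled down with an m6A antibody from total RNA broken to about 100 nt, so there were 4 groups with 1 library each. The titles of the pulldown libraries name Zfp217 beside IP, against an antibody field and protocol that name m6A; the latter were followed here, and the list cannot settle which is right. The series concerns how Zfp217 bears on m6A, but the deposited list is titled only as differential peaks and names no library. It holds no level, fold change, p-value or direction, and its score is 900 in every row. No peak described here can therefore be said to have risen or fallen, no error between cultures can be given, and the depth behind each peak is unknown. The markers of the cells and the extent of the Zfp217 knockdown were not analysed here.

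N6-methyladenosine (m6A) is the most common internal modification of messenger RNA. It is written by a complex built on Mettl3 and Mettl14, mostly at the A of a short AC-centred motif, and it is found mainly in long internal exons and around stop codons. In embryonic stem cells it marks many transcripts of developmental regulators and speeds their decay. An antibody pulldown of broken RNA gives a stretch of enrichment rather than a site, so a wide peak can hold several methylated adenosines, which these data do not resolve.

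The widest peak of each gene lay among the first 9 of the list by summed block length. Msh6 held rank 2 with 2773 nt, Plec rank 3 with 2458 nt and Arid1a rank 4 with 2067 nt. Ppp1r15b followed at rank 6 with 1943 nt, Fzd5 at rank 7 with 1856 nt, Rbm15b at rank 8 with 1851 nt and Spry4 at rank 9 with 1741 nt. Rank 1, with 3149 nt, and rank 5, with 1975 nt, lay outside the windows. Just below Spry4, rank 10 had 1732 nt and rank 11 had 1706 nt, so no step in length sets the 7 genes apart from the peaks that follow. The median over the whole list was 210 nt.

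**Figure D1:**
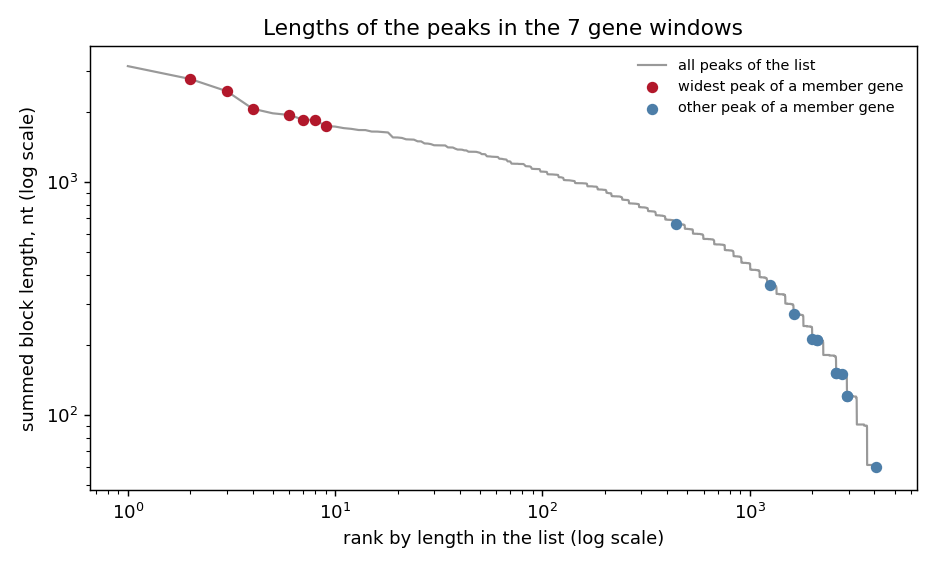
Summed block length in nt against rank in the list, both on log scales, with all 4206 peaks as a grey line, the widest peak of each of the 7 genes in red and their 12 other peaks in blue. The red points lie between 1741 and 2773 nt, while the blue points run from 60 to 660 nt along the middle and lower part of the line.

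The other peaks of the same genes were of ordinary length. There were 12 of them, with a median of 180 nt and a range of 60 to 660 nt, and 10 of the 12 lay between the quartiles of the list, 120 and 420 nt. Together the 19 peaks covered 17365 nt, or 1.31% of the summed length of the list, and 84.6% of that lay in the 7 widest peaks. Each gene thus carried 1 long stretch, and its remaining peaks, where it had any, were no longer than 660 nt. Of the 19 peaks, 13 had another peak on their strand within 1000 bp (68.4%, against 36.4% of the list), and 7 of the 13 were those of Plec.

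**Figure D2:**
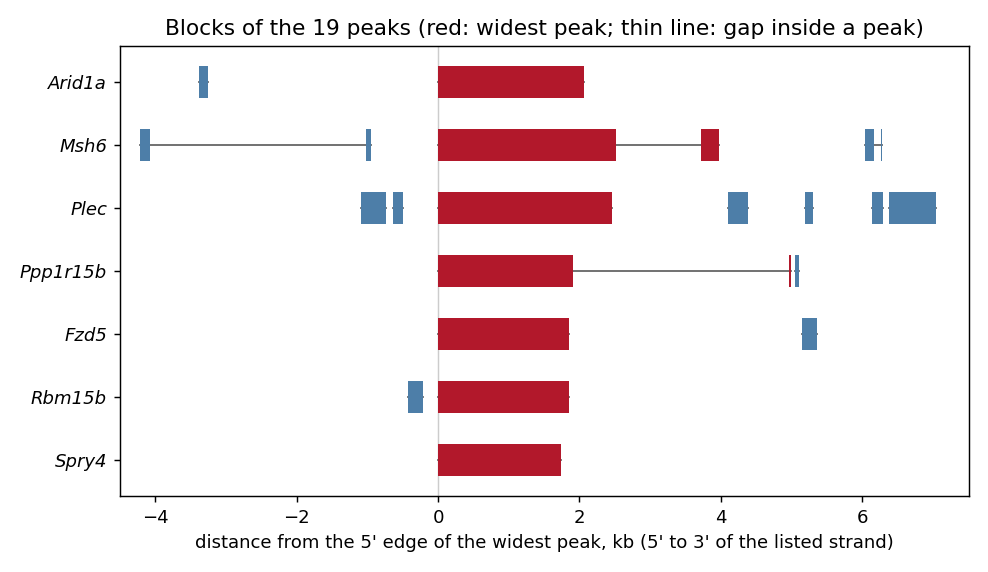
Blocks of the 19 peaks by gene, with distance in kb from the 5′ edge of the widest peak along the listed strand, the widest peak in red, other peaks in blue and thin lines for gaps inside a peak. Plec shows 7 peaks, on both sides of the widest, while Spry4 shows 1; gaps appear in Msh6 and Ppp1r15b alone.

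Msh6 codes for a DNA mismatch repair protein. It carried 3 peaks, all on the plus strand and all split into 2 blocks. The first lay at chr17:88379592-88382855 with 210 nt in its blocks, the second and widest at chr17:88383805-88387781 with 2773 nt, and the third at chr17:88389841-88390083 with 150 nt. The gaps inside them measured 3054, 1204 and 93 bp. In the GENCODE vM21 annotation, built on GRCm38, introns 2, 4 and 9 of Msh6 have exactly these lengths, and no other intron of the transcript shares one. The listed distance from the first gap to the second was 3537 bp and from the second to the third 2445 bp, which are also the distances between those introns in the annotation. Only lengths were compared, and no position was moved from one build to the other.

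Read this way, the widest peak of Msh6 covered 2517 of the 2536 nt of exon 4 and 256 of the 269 nt of exon 5. It left out 19 nt at the start of the former and 13 nt at the end of the latter. The first peak joined the last 139 nt of exon 2 to the first 71 nt of exon 3, and the third joined the last 130 nt of exon 9 to the first 20 nt of exon 10. All 3 peaks lay within the coding sequence. Along the spliced transcript of 4251 nt they covered 73.7% of its length and 76.8% of the coding sequence, and the third ended 62 nt before the end of the stop codon. Between them lay 118 nt and 446 nt of unlisted transcript. With RNA fragments of about 100 nt, an edge within 20 nt of an exon end is not resolved from the exon end itself.

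The sequences below are the spliced coding stretches in question, taken from the GENCODE transcript by its exons; bases of mm9 itself were not used here. The pentamer of the m6A motif, A, G or T followed by A or G, then AC, then A, C or T, is in capitals, and neighbouring or overlapping matches run together. Both narrow peaks are shown whole because each holds just 1 match, and 2 stretches of 120 nt stand for the widest peak: its exon junction and the stretch of its first block with the most matches.

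Msh6, peak 1, exons 2 and 3: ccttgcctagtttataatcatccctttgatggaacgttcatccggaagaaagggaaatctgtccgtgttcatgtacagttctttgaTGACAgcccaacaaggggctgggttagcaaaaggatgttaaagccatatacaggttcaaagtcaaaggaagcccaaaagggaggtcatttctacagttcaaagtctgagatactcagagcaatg

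Msh6, peak 3, exons 9 and 10: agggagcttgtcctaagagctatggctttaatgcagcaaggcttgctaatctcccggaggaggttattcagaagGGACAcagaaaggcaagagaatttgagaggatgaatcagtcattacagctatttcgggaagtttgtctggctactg

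Msh6, widest peak, junction of exons 4 and 5 after base 60: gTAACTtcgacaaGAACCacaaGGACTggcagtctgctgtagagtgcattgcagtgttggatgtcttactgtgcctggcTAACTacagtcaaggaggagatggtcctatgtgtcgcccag

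Msh6, widest peak, 120 nt of exon 4 with the most matches: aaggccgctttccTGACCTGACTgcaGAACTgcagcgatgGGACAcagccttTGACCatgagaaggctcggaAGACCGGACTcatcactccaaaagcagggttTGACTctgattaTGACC

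The first of these holds 1 match in 210 nt and the next 1 in 150 nt, or 4.76 and 6.67 per kb. The widest peak held 68 matches, or 24.5 per kb. The junction stretch of 120 nt held 4 and the densest stretch of exon 4 held 9. Over all 3 peaks there were 70 matches in 3133 nt (22.3 per kb), against 18 in the remaining 1118 nt of the transcript (16.1 per kb). The strict form GGACT occurred 4 times in the Msh6 transcript, each time inside the widest peak. That peak takes up 2773 of the 4251 nt, so most places in the transcript lie inside it. A match is a description of the letters and not a methylated site, and no test was made of the difference.

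Ppp1r15b codes for a subunit that directs protein phosphatase 1 to the initiation factor eIF2, whose phosphorylation lowers translation. Its widest peak lay at chr1:135028281-135033270 on the plus strand, with blocks of 1912 and 31 nt and a gap of 3047 bp. The single intron of the annotated transcript is 3047 bp long. A second peak of 60 nt lay at chr1:135033330-135033389, 59 bp further on. If the gap is that intron, the first block covered the last 1912 of the 2473 nt of exon 1, and the peak began 43 nt before the start codon. The narrow peak then lay in exon 2 and ended 75 nt before the end of the stop codon. Together both peaks covered 93.6% of the coding sequence but 35.8% of the transcript of 5594 nt, most of which is 3′ untranslated.

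The second block reached only 31 nt past the junction, less than a fragment's length. The widest peak of Ppp1r15b as a whole held 44 matches, or 22.6 per kb, and 5 copies of GGACT. The 2 peaks together held 45 matches in 2003 nt (22.5 per kb), against 71 in the other 3591 nt (19.8 per kb), and 5 of the 9 copies of GGACT in the transcript. Ppp1r15b had the highest density of GGACT among the 7 transcripts, 1.61 per kb, above 77.6% of coding genes.

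**Figure D3:**
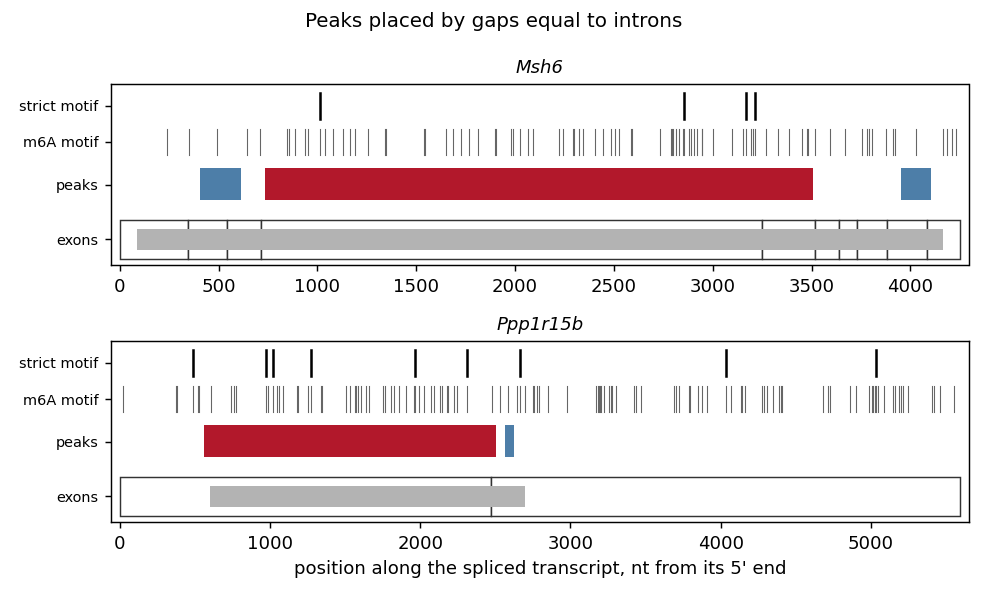
Spliced transcripts of Msh6 and Ppp1r15b in nt from the 5′ end, with exons as open boxes, coding sequence in grey, the widest peak in red, other peaks in blue and ticks for matches to the m6A motif and to its strict form GGACT. Split peaks were placed by gaps equal in length to introns, and the unsplit peak of Ppp1r15b by its listed distance of 59 bp from the widest. In Msh6 the 4 strict matches lie under the widest peak, which takes up 2773 of the 4251 nt. In Ppp1r15b, if the gap is the intron, the peaks lie over the coding sequence and the 43 nt before it, while the 3′ untranslated part has none.

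Split peaks made up 4 of the 19 (21.1%), against 9.63% of the list, and lay in Msh6 and Ppp1r15b. No test was made of these shares. For the other 5 genes no peak was split, so no gap ties a peak to an exon. Their blocks could be compared only with the lengths of annotated exons, on the assumption that a block without a gap lies in 1 exon. Arid1a, which codes for a DNA-binding subunit of the BAF chromatin remodelling complex, had its widest peak at chr4:133235881-133237947 on the minus strand. Of the 20 exons of its transcript only the last, of 3048 nt, is long enough to hold 2067 nt. That exon has 1725 coding and 1323 untranslated nt, so such a block would take in at least 744 coding nt. A second peak of 121 nt at chr4:133241203-133241323 lay 3255 bp upstream.

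Fzd5, a Frizzled receptor for Wnt ligands, had its widest peak of 1856 nt at chr1:64780843-64782698 on the minus strand. A peak of 211 nt at chr1:64777341-64777551 lay 3291 bp downstream. From edge to edge both peaks spanned 5358 bp, and exon 2, the last of the gene, is 6296 nt long. If both lay in it, the widest peak would hold between 1073 and all 1758 nt of the coding sequence, and the narrow one would lie in the 3′ untranslated part.

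Rbm15b, an RNA-binding protein that belongs to the m6A writer complex and helps to guide it to its targets, had its widest peak of 1851 nt at chr9:106786615-106788465 on the minus strand, and a second of 210 nt at chr9:106788674-106788883, 208 bp upstream. The transcript is a single exon of 6511 nt with 2664 coding nt, and the peaks amounted to 31.7% of it. A further peak of 270 nt on the same strand lay 2387 bp upstream of these, outside the window; the gene it belongs to was not analysed here.

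Plec codes for plectin, which links intermediate filaments to other parts of the cytoskeleton. It carried 7 peaks on the minus strand, more than any of the other 6 genes. From 5′ to 3′ they measured 360, 151, 2458, 271, 121, 151 and 660 nt, and the widest lay at chr15:76006018-76008475. The distances between them ran from 89 to 1647 bp, the largest being that just downstream of the widest peak. The first and last peak lay at the edges of a stretch of 8133 bp. Plec has 33 exons in the transcript used, and 2 of them, exon 32 of 3381 nt and the last of 7412 nt, exceed 1000 nt and could hold the widest block. The stretch is longer than either exon but shorter than the 10926 bp that both take up with the intron between them. The peaks amounted to 27% of the transcript of 15455 nt.

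Spry4, a Sprouty protein that restrains signalling from receptor tyrosine kinases to the MAP kinases, carried a single peak of 1741 nt at chr18:38748318-38750058 on the minus strand. Its nearest neighbour on that strand lay 896299 bp away. Of its 2 exons only the second, of 4509 nt, could hold the peak, which amounted to 36.6% of the transcript. That exon has 903 coding and 3559 nt of 3′ untranslated sequence, so a block of 1741 nt in it would take in at least 791 nt of the latter and between 0 and 903 coding nt.

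All 7 genes have long exons. The longest exon measured 2536 nt in Msh6, 3048 nt in Arid1a, 3121 nt in Ppp1r15b, 4509 nt in Spry4, 6296 nt in Fzd5, 6511 nt in Rbm15b and 7412 nt in Plec. Over 21866 coding genes the median was 1187 nt with quartiles of 585 and 2321 nt, so each of the 7 lay above the upper quartile, from the percentile 78.2 for Msh6 to 98.8 for Plec. An unbroken peak needs an exon at least as long, and 35.6% of coding genes have one of 1741 nt or more; the lengths of these exons are thus tied to how the genes were chosen. The share of the longest exon that the longest block equalled ran from 28.4% in Rbm15b to 99.3% in Msh6. Long exons are not particular to these 7 genes. Of the relatives compared, only Msh3, at 675 nt, has no exon of 1741 nt or more. The longest exon is 2143 nt in Arid1b, 3459 nt in Rbm15 and 2408 nt in Ppp1r15a. It ranges from 1803 nt in Fzd6 to 10484 nt in Fzd3 among the other Frizzled receptors, and is 2044 nt in Spry1, 1855 nt in Spry2, 3040 nt in Arid2, 5292 nt in Dst and 5331 nt in Macf1, the last pair being cytolinkers like plectin. Whether the relatives carry listed peaks was not analysed here.

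**Figure D4:**
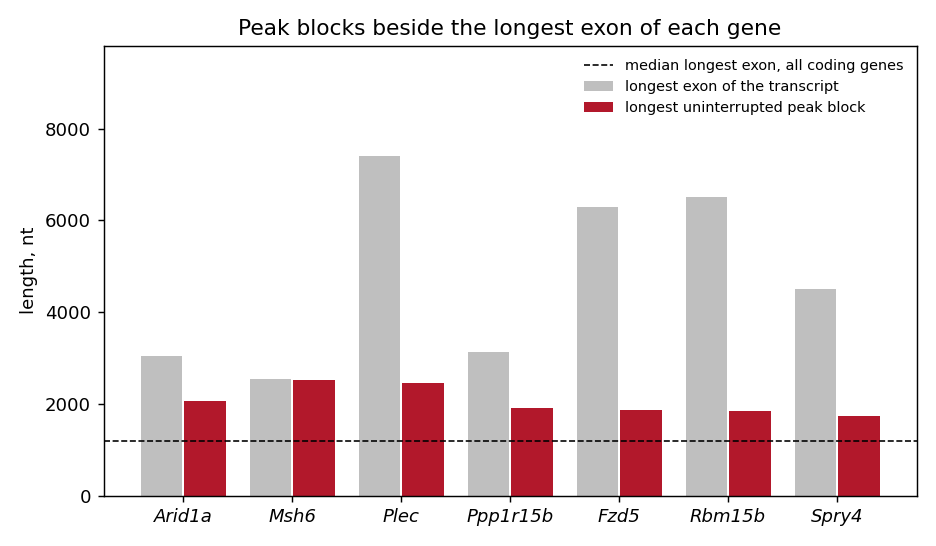
Length in nt of the longest exon of each gene's transcript (grey bars) and of its longest uninterrupted peak block (red bars), with the median longest exon of all coding genes as a dashed line at 1187 nt. Every red bar is shorter than the grey bar beside it, and in Msh6 they differ by 19 nt; for Ppp1r15b the gap places the block in exon 1 of 2473 nt, not in the longest exon shown.

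The member transcripts were not rich in the m6A motif as a whole. Its density was 20.7 matches per kb in Msh6 and in Ppp1r15b, 19.7 in Rbm15b, 18 in Arid1a, 17.4 in Plec, 17 in Spry4 and 14 in Fzd5. The median over coding genes was 20.4 per kb with quartiles of 17.9 and 22.7, and 99.8% of coding transcripts hold at least 1 match. Fzd5 thus stood above only 5.47% of coding genes, and 4 of the 7 lay inside the quartiles. A low density is not particular to Fzd5 among the Frizzled receptors. The others ran from 9.83 per kb in Fzd2 to 21 in Fzd4, and Fzd10, at 13.2, also lay below it. Within 6 of the 7 member genes the longest exon had a higher density than the other exons. Rbm15b has no other exon. Among 20306 coding genes with more than 1 exon, the longest exon had the higher density in 50.7%. Those genes were not matched to the members for exon length, and no test was made of the members' count. The values were 24.4 against 15.2 per kb in Msh6, 22.6 against 15.2 in Arid1a and 20.8 against 14.3 in Plec. They were 14.8 against 6.46 in Fzd5, 21.5 against 19.8 in Ppp1r15b and 16.9 against 16.3 in Spry4. The longest exon of Spry4 takes up 4509 of its 4755 nt, so the value for its other exon rests on few bases. For Ppp1r15b the longest exon is exon 2, while the gap places the first block of its widest peak in exon 1, the exon with the lower density. GGACT was absent from the coding sequences of Fzd5 and Spry4, which measure only 1758 and 903 nt. The share of all coding sequences without it was not analysed here, so the absence is not read as a trait of these genes. Whole transcripts of Fzd5 and Spry4 held 8 and 2 copies. Over whole coding transcripts, which are longer than their coding sequences, the median was 1.02 copies per kb and 86.8% hold at least 1.

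**Figure D5:**
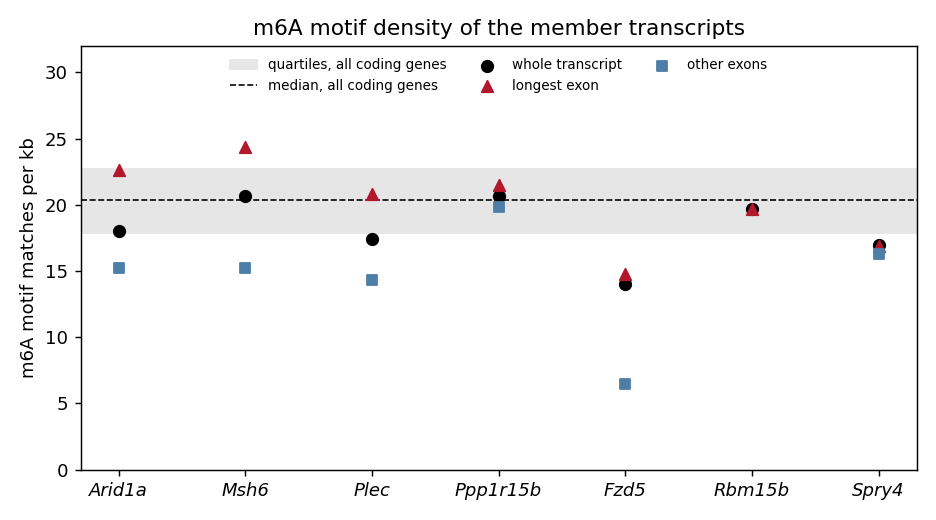
Matches to the m6A motif per kb in the whole transcript (black circles), the longest exon (red triangles) and the other exons (blue squares) of each gene, with the quartiles and median of all coding genes as a grey band and dashed line. Red triangles lie above blue squares in the 6 genes with more than 1 exon, and the whole transcript of Fzd5, at 14, is lowest.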

How the data were processed

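The build mm9 and the tools MACS 1.4, CASAVA 1.4 and Bowtie2 are named by the submitters' processing notes, without their roles. How the list was called, and on which libraries, is not stated in those notes or in the labels. The authors deposited 1 peak list of the whole series with positions, strand and blocks, and a score of 900 in every row. Per the labels, the libraries were made with TruSeq RNA kits, which do not mark strand, so where the listed strand comes from is unknown.

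Positions are in mm9, counted from 1. Length is the sum of a peak's blocks. Members and comparisons were chosen with earlier results of these data known, and the placement by gap lengths was added after the gaps were seen. All 7 genes, and relatives for annotation values, were named by rule. Exons and sequences came from GENCODE vM21 (GRCm38), using for each gene the coding transcript with the longest coding sequence, stop codon included. The 18 pentamers of the motif were counted on the transcript strand, overlaps included. Python 3.11.15, numpy 2.4.6 and matplotlib 3.10.9 were used; window assignment and motif counts were checked on simulated data. Some items are not reported here.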

Additional observations from a re-analysis of the deposited data

How the results depend on the processing

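The count of 19 peaks was the same on either strand, with every block required inside the window and without the second sorted run of the list. It was 20 with windows wider by 5000 bp on the gene's strand, which add the further peak near Rbm15b, and 16 with peaks within 100 bp merged. On the opposite strand the wider windows also hold a peak of 150 nt at chr17:88391126-88391275, 1042 bp from the nearest Msh6 peak. The summed length of 17365 nt was the same on either strand, with each base counted once and in the first run alone. The median of the 12 other peaks was 180 nt, and 210 nt by span, which takes in the gaps of the Msh6 peaks. It was 180 nt on either strand, in the first run alone and without Plec, a setting chosen after seeing the data. The median longest exon, 4509 nt, and each gene's own value were the same over all coding transcripts. The median motif density was 18 per kb; it was 17.6 in coding sequence alone and 0.922 for GGACT alone, a rarer motif by construction. No paired analysis was possible because no group had more than 1 library. With no counts deposited in the list, limits set by depth were not analysed here. Placement along Msh6 and Ppp1r15b assumes that exon lengths are the same in mm9 and GRCm38, which for Msh6 rests on the equal distances given above.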

Other observations

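The lengths of the widest peaks mostly did not sit on the step of 30 nt that marks most of the list. All 12 other peaks of the 7 genes had a length within 1 nt of a multiple of 30, but of the 7 widest only that of Spry4 did. Along the list the share on the step fell with length. It was 95.4% of the 2625 peaks under 300 nt and 73.3% of the 1438 from 300 nt to under 1000 nt. Of the 143 peaks of 1000 nt or more, 40.6% still lay on the step. Without the members, 41.9% of the remaining 136 long peaks did. The cause was not tested.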
